A study of Mus musculus with 27 samples.

Results

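The CCN family is a small group of secreted matrix proteins, and 5 of its genes, Ccn1, Ccn2, Ccn3, Ccn4 and Ccn5, were followed here through pressure overload of the mouse heart and treatment with the BET bromodomain inhibitor JQ1. They were matched by symbol in the probe annotation and are 5 of the 19937 genes analysed, each with 1 probe set that lists no other gene. Ccn6, the sixth gene of the family, is given for comparison. RNA from heart tissue was measured on 27 Affymetrix whole-transcript arrays, and a level below is the log2 signal of a probe set on an array. Probe sets differ in how brightly they bind, so levels are compared between groups for 1 gene and not between genes, except to say how bright a probe set was.

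The mice were C57Bl/6J males, littermates 10 to 12 weeks old. In transverse aortic constriction (TAC) the aortic arch was tied against a 27-gauge needle, which per the labels left a pressure gradient of about 50 mmHg, and control mice had sham surgery. DMSO vehicle or JQ1 was injected from 1.5 days after surgery, and hearts were taken on days 3, 11 and 28, which is 1.5, 9.5 and 26.5 days after the first injection. The 9 groups hold 3 arrays each: on each day, vehicle-treated sham mice, vehicle-treated TAC mice and JQ1-treated TAC mice. No sham group received JQ1, and the labels state no JQ1 dose. The labels do not say that each array comes from a heart of its own. The p-values set a difference against the spread between these samples, which may be partly technical. If arrays share a heart, the p-values understate the uncertainty between animals. JQ1 displaces proteins of the BET bromodomain family from acetylated chromatin.

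CCN proteins are matricellular: they sit in the extracellular matrix and act on cells through integrins, heparan sulphate proteoglycans and LRP receptors, and by binding growth factors, rather than by giving the matrix its strength. Ccn1 and Ccn2 are fast-responding genes driven by stretch, by YAP and TAZ with TEAD factors, and by TGF-beta, and Ccn2 (connective tissue growth factor) is widely used as a marker of cardiac fibrosis. Ccn3 often opposes Ccn2 in cell culture, Ccn4 was found as a Wnt-induced gene, and Ccn5 lacks the C-terminal module of its relatives and is known for limiting fibrosis in the heart.

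In the RefSeq annotation of the mouse genome, build GRCm38.p6, all 6 genes are protein coding. Ccn1 (older symbol Cyr61) lies at chr3:145646971-145649985, Ccn2 (Ctgf) at chr10:24595442-24598683, and Ccn3 (Nov) at chr15:54745910-54753762. Ccn4 (Wisp1) lies at chr15:66891369-66923201, Ccn5 (Wisp2) at chr2:163820752-163833146, and Ccn6 (Wisp3) at chr10:39150970-39174376. Of the 5 genes 1, Ccn1, was matched in the RefSeq promoter table. Its 250 bases before the gene's start, chr3:145649986-145650235 on the minus strand, are shown 5′ to 3′ because Ccn1 is a textbook target of YAP and TEAD. The capitals mark CATTCC, the reverse complement of the TEAD core GGAATG, at bases 148 to 153 of the stretch.
Ccn1 promoter: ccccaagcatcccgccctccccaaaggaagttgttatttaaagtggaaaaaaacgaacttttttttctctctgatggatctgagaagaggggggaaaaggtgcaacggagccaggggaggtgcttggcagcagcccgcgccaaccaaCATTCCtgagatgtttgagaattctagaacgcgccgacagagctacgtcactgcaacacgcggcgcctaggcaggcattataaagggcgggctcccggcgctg
On either strand, GGAATG is in 12.6% of the 32851 promoter windows of this length in the table, so the match is a description of these letters and not evidence of a bound site. The Smad element GTCTGT (13.2% of windows), the E-box CACGTG (6.0%) and the AP-1 motif TGANTCA (6.7%) were also searched on both strands, and their letters are not in this window. No other searched motif overlaps the marked letters.

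Most arrays of a group were alike. The array of TAC with JQ1 at day 3, replicate 1, stood apart: its root mean square deviation from its group means over all genes was 0.193 log2 units, against 0.084 to 0.15 on the other 26 arrays. Its Ccn1 and Ccn2 levels were the highest of its group. CCN calls and gene list counts of JQ1 at day 3 that change without it are given both ways, and values of other single genes at that day include it. Hexim1, a gene known to rise under BET inhibition, was higher with JQ1 than with vehicle by 1.85 at day 3, 1.77 at day 11 and 1.94 at day 28 on the log2 scale, in the direction the JQ1 labels call for. The 8 cardiomyocyte markers had a mean level of 13.40 to 13.55 on every array, and Myh6 was among them, as the heart label requires.

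TAC raised the level of Ccn2, Ccn4 and Ccn5 at every day examined and that of Ccn1 at day 11, whereas Ccn3 passed the test at no day. The size of the response differed widely within the family: about 3-fold for Ccn2 throughout, a slow climb to 2.62-fold for Ccn5, and less than 1.5-fold for Ccn4. The probe sets also differed in brightness. By mean signal Ccn2 was above 96.7% of genes, Ccn1 above 91.6%, Ccn5 above 76%, Ccn3 above 40.5% and Ccn4 above 31.9%. Whether a dim signal lessened the fold seen for Ccn4 or Ccn3 was not tested. These comparisons ask how the heart's CCN genes respond to pressure overload alone, TAC with vehicle against sham with vehicle. Differences are TAC minus sham in log2 units with the standard error of 1 limma model of all 27 arrays, and a gene was called at a Benjamini-Hochberg adjusted p under 0.05 over all 19937 genes.

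Among all genes, 7.55% were called at day 3 (4.22% higher), 15.5% at day 11 (7.8% higher) and 15.1% at day 28 (8.13% higher). Of the 5 CCN genes, 3 were called at day 3, 4 at day 11 and 3 at day 28, all of them higher after TAC. The 3 TAC arrays did not overlap the 3 sham arrays for 4, 5 and 4 of the CCN genes on the successive days. Over all genes the groups did not overlap for 21.6%, 33.4% and 37.7%.

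**Figure D1:**
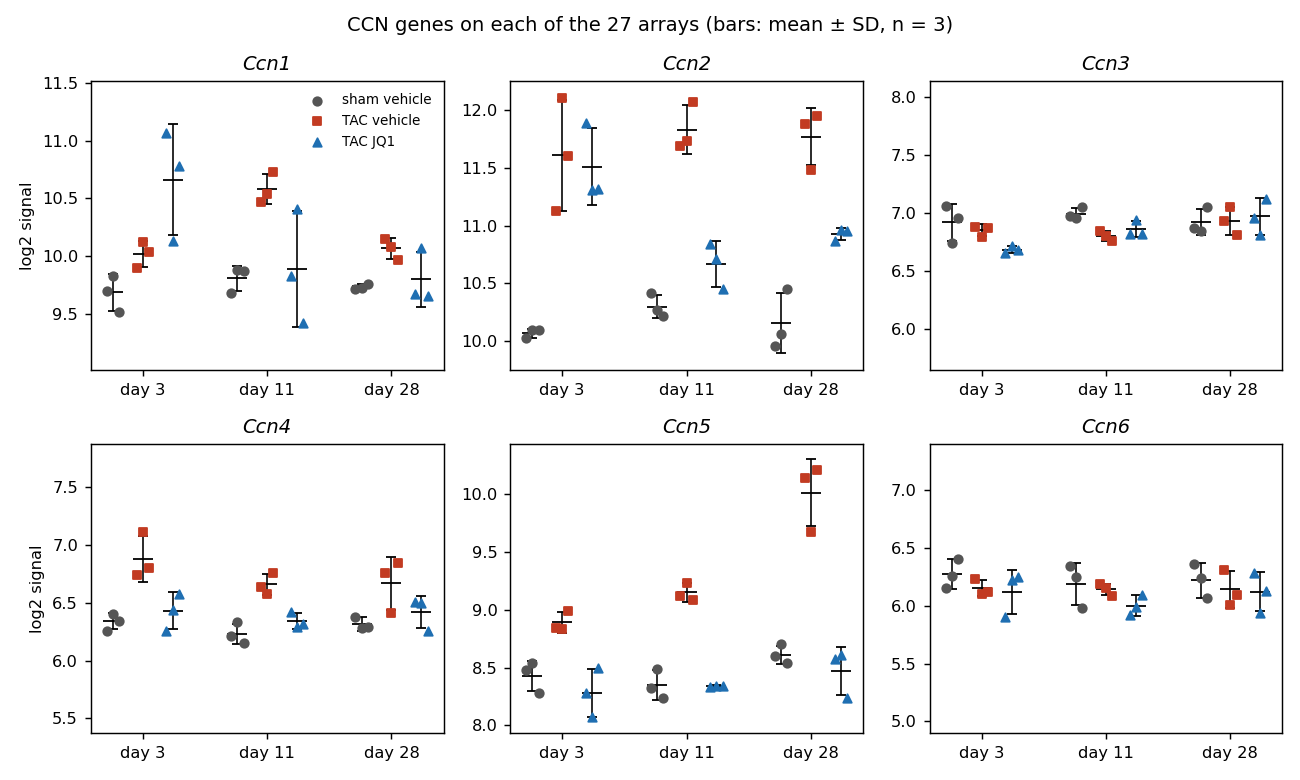
Log2 signal of the 5 CCN genes and Ccn6 on each of the 27 arrays, by day after surgery (horizontal axis) for sham with vehicle (circles), TAC with vehicle (squares) and TAC with JQ1 (triangles). Bars are the mean ± SD of 3 arrays. All TAC vehicle arrays of Ccn2 lie at 11.13 or higher and all sham arrays at 10.45 or lower, and the TAC vehicle arrays of Ccn5 climb from 8.83 to 8.99 at day 3 to 9.67 to 10.21 at day 28.

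Ccn2, the fibrosis-associated member, had the largest response to TAC of the family on each day. In sham hearts its levels on the 3 arrays were 10.03, 10.10 and 10.10 at day 3, 10.42, 10.27 and 10.22 at day 11, and 9.96, 10.06 and 10.45 at day 28. After TAC they were 11.13, 12.10 and 11.60 at day 3, 11.69, 11.73 and 12.07 at day 11, and 11.88, 11.48 and 11.95 at day 28. Every TAC array was above every sham array, whatever the day. The differences were 1.54 ± 0.19 (2.91-fold, adjusted p = 2.72e-05) at day 3, 1.53 ± 0.19 (2.88-fold, adjusted p = 5.54e-06) at day 11 and 1.61 ± 0.19 (3.06-fold, adjusted p = 3.46e-06) at day 28. By p-value Ccn2 stood at place 21 of the 19937 genes at day 3, 116 at day 11 and 72 at day 28. The TAC effect on Ccn2 did not pass the test for a difference between days (moderated F test, adjusted p = 0.978), and the 95% interval of the day 28 minus day 3 difference in effect ran from -0.47 to 0.62.

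Ccn5, which lacks the C-terminal module, was the member with a growing response. Its sham levels were 8.48, 8.54 and 8.28 at day 3, 8.32, 8.49 and 8.24 at day 11, and 8.60, 8.70 and 8.54 at day 28. After TAC the levels were 8.84, 8.83 and 8.99 at day 3, 9.12, 9.23 and 9.08 at day 11, and 10.14, 9.67 and 10.21 at day 28. The TAC groups of the 3 days did not overlap each other, and each lay above all sham arrays. TAC exceeded sham by 0.45 ± 0.12 at day 3 (adjusted p = 0.0241), by 0.80 ± 0.12 at day 11 (adjusted p = 7.52e-05) and by 1.39 ± 0.12 at day 28 (2.62-fold, adjusted p = 1.4e-07). By p-value Ccn5 stood at place 11 of the 19937 genes at day 28.

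The growth of the Ccn5 response was tested directly. The TAC effect differed between days (moderated F test, adjusted p = 0.0178), a test that called 1.31% of all genes and no other CCN gene. The effect at day 28 exceeded that at day 3 by 0.94 ± 0.17 (adjusted p = 0.00826), and the steps from day 3 to day 11 (0.34 ± 0.17, adjusted p = 0.563) and from day 11 to day 28 (0.59 ± 0.17, adjusted p = 0.16) did not pass on their own. Of all genes 1.6%, 0.351% and 0.145% were called in these 3 steps. Within TAC vehicle hearts the Ccn5 level was higher at day 28 than at day 11 by 0.86 ± 0.12 (adjusted p = 0.000989), a comparison that called 2.09% of all genes. Sham levels of Ccn5 did not pass a test between days (adjusted p = 0.871, with 0.0652% of all genes called). Without replicate 3 of TAC at day 28 the difference of the TAC effect between days had an adjusted p of 0.0612. The day 3 rise alone was not called without replicate 3 of sham (0.38, adjusted p = 0.14), replicate 2 of TAC (0.48, adjusted p = 0.0776) or replicate 3 of TAC (0.40, adjusted p = 0.0958).

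Ccn4, the Wnt-induced member, rose less. Its sham levels lay between 6.15 and 6.40 over the 9 sham arrays. After TAC they were 6.74, 7.11 and 6.80 at day 3, 6.64, 6.58 and 6.76 at day 11, and 6.76, 6.41 and 6.84 at day 28. All TAC arrays were above the sham arrays of their day, although replicate 2 at day 28 only just so. The differences were 0.55 ± 0.11 (1.46-fold, adjusted p = 0.00239), 0.43 ± 0.11 (1.35-fold, adjusted p = 0.00683) and 0.35 ± 0.11 (1.27-fold, adjusted p = 0.0286) on the successive days. The effect did not pass a test between days (adjusted p = 0.769), and the day 28 minus day 3 difference had a 95% interval of -0.51 to 0.12. The day 28 call was lost without replicate 2 of sham (0.33, adjusted p = 0.0914), replicate 3 of sham (0.34, adjusted p = 0.0821), replicate 1 of TAC (0.30, adjusted p = 0.109) or replicate 3 of TAC (0.26, adjusted p = 0.191).

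Ccn1, an immediate-early gene of stretched cardiomyocytes, was called after TAC at day 11 and at neither of the other days. Sham levels were 9.70, 9.83 and 9.52 at day 3, 9.68, 9.88 and 9.87 at day 11, and 9.72, 9.73 and 9.76 at day 28. After TAC they were 9.90, 10.12 and 10.04 at day 3, 10.47, 10.54 and 10.73 at day 11, and 10.15, 10.08 and 9.97 at day 28. The TAC arrays were above the sham arrays of their day each time, and furthest above them at day 11. The difference at day 11 was 0.77 ± 0.19 (1.71-fold, adjusted p = 0.00698). At day 3 it was 0.34 ± 0.19 (95% interval -0.06 to 0.74, adjusted p = 0.386), and at day 28 0.33 ± 0.19 (-0.07 to 0.73, adjusted p = 0.284). That the effect differed between days was not shown (moderated F test, adjusted p = 0.604), and the TAC level itself did not pass between day 11 and day 3 (0.56, adjusted p = 0.204, with 1.45% of all genes called) or day 28 and day 11 (-0.51, adjusted p = 0.18).

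Of the 5 genes Ccn3 had the smallest range, its 9 group means spanning 0.31 log2 units. Sham levels were 7.06, 6.74 and 6.96 at day 3, 6.97, 6.96 and 7.05 at day 11, and 6.87, 6.84 and 7.05 at day 28. After TAC they were 6.88, 6.79 and 6.87 at day 3, 6.84, 6.80 and 6.76 at day 11, and 6.93, 7.05 and 6.81 at day 28. The groups overlapped at day 3 and day 28, and at day 11 the TAC arrays were all below the sham arrays. The differences were -0.07 (95% interval -0.25 to 0.10, adjusted p = 0.753), -0.19 (-0.37 to -0.02, adjusted p = 0.145) and 0.01 (-0.16 to 0.19, adjusted p = 0.943). Over the 27 arrays its levels lay between 6.65 and 7.12.

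Averaged over the 3 days, TAC exceeded sham by 1.56 ± 0.11 for Ccn2 (adjusted p = 4.5e-10), 0.88 ± 0.07 for Ccn5 (adjusted p = 3.75e-09), 0.48 ± 0.11 for Ccn1 (adjusted p = 0.00199) and 0.44 ± 0.06 for Ccn4 (adjusted p = 7.22e-06). This average called 25.9% of all genes, and 4 of the 5 CCN genes, all higher. For Ccn3 the average was -0.08 ± 0.05 (adjusted p = 0.236).

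JQ1 lowered each of the 4 CCN genes that TAC had raised on at least 1 day. Ccn5 was lower than in vehicle-treated TAC hearts at all 3 days, Ccn2 at days 11 and 28, Ccn4 at days 3 and 11 and Ccn1 at day 11, while Ccn1 was higher at day 3. Ccn3 was not called at any day. The calls of Ccn5 and Ccn2 held with any 1 array left out, whereas each call of Ccn4 and Ccn1 was lost without some single arrays. The comparison, TAC with JQ1 against TAC with vehicle, asks how BET inhibition alters the response to pressure overload. It shares its TAC vehicle arrays with the TAC against sham comparison, so a high TAC array raises the first difference and lowers the second, and the values are set side by side without a test of their likeness.

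Of all genes 11.9% were called at day 3 (4.28% higher, 7.61% lower), 16% at day 11 (7.52% and 8.43%) and 19.6% at day 28 (7.16% and 12.4%). With each array centred on its median, the calls at day 28 split into 1005 higher and 2796 lower in place of 1427 and 2480. Of the 5 CCN genes 1 was called higher and 2 lower at day 3, 4 lower at day 11 and 2 lower at day 28. The arrays did not overlap for 4, 4 and 2 of them, against 23.1%, 36.3% and 35% of all genes. Without replicate 1 of the JQ1 group at day 3, Ccn5 was the only CCN gene called at that day, and 7.07% of all genes were called.

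**Figure D2:**
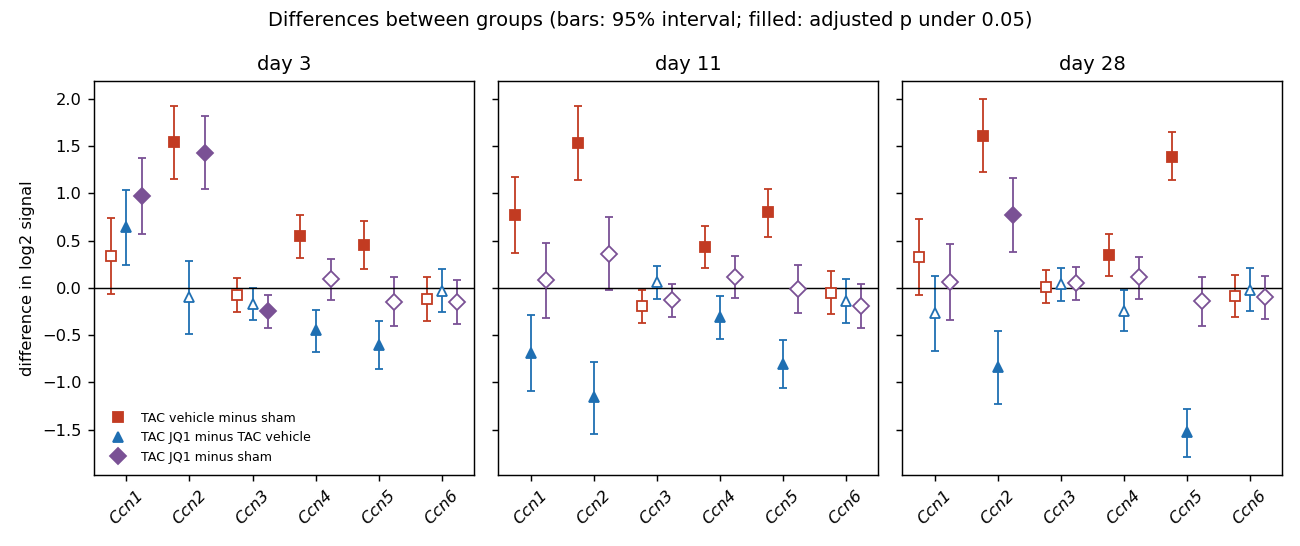
Differences in log2 signal (vertical axis) for each CCN gene and Ccn6 on days 3, 11 and 28: TAC vehicle minus sham (squares), TAC JQ1 minus TAC vehicle (triangles) and TAC JQ1 minus sham (diamonds). Bars are 95% intervals and filled symbols have an adjusted p under 0.05. At day 28 Ccn5 is 1.39 higher after TAC and 1.53 lower with JQ1, and Ccn1 at day 3 is the filled triangle above 0.

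Ccn5 had the largest JQ1 effect of the family at day 28. With JQ1 its levels were 8.28, 8.07 and 8.50 at day 3, 8.33, 8.34 and 8.34 at day 11, and 8.57, 8.61 and 8.24 at day 28. All of these were below every vehicle-treated TAC array, of which the lowest was 8.83. The differences were -0.60 ± 0.12 (1.52-fold lower, adjusted p = 0.00205), -0.81 ± 0.12 (1.75-fold, adjusted p = 8.41e-05) and -1.53 ± 0.12 (2.89-fold, adjusted p = 3.88e-08), and each was called with any of its 6 arrays left out. By p-value Ccn5 stood at place 6 of 19937 genes at day 28.

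The JQ1 effect on Ccn5 also differed between days (moderated F test, adjusted p = 0.0258), in a test that called 1.07% of all genes. It was larger in size at day 28 than at day 3 by 0.93 log2 units (difference -0.93 ± 0.17, adjusted p = 0.0209) and than at day 11 (-0.72 ± 0.17, adjusted p = 0.0481), where 0.271% and 0.853% of all genes were called. The vehicle-treated TAC level climbed over these days and the JQ1 level did not leave the range of 8.07 to 8.61. Without replicate 1 of TAC vehicle at day 28 the adjusted p between days was 0.0844.

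Ccn2 was lower with JQ1 from day 11. Its levels with JQ1 were 11.89, 11.31 and 11.32 at day 3, 10.84, 10.71 and 10.45 at day 11, and 10.87, 10.96 and 10.95 at day 28. At day 3 they lay inside the span of the vehicle-treated TAC arrays, and at days 11 and 28 every one was below them. The difference was -0.10 ± 0.19 (95% interval -0.49 to 0.28, adjusted p = 0.832) at day 3, -1.16 ± 0.19 (2.24-fold lower, adjusted p = 0.000157) at day 11 and -0.84 ± 0.19 (1.79-fold lower, adjusted p = 0.0024) at day 28. Without replicate 2 of TAC vehicle, the highest of its group, the day 3 value was 0.14 (adjusted p = 0.811). A call at day 11 and none at day 3 was not itself shown to be a difference: the F test between days gave an adjusted p of 0.0806, and the step from day 3 to day 11 was -1.06 ± 0.27 (adjusted p = 0.121). Without that same array the F test gave 0.0173.

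Ccn1 differed from vehicle in opposite directions at day 3 and day 11, and both calls were lost without some single arrays. With JQ1 its levels were 11.07, 10.13 and 10.78 at day 3, 9.83, 10.41 and 9.42 at day 11, and 9.67, 10.07 and 9.66 at day 28. The day 3 arrays were all above the vehicle-treated TAC arrays, the lowest only just, and the day 11 arrays were all below them. At day 28 the groups overlapped. The spread within the JQ1 groups, an SD of 0.48 at day 3 and 0.50 at day 11, was wider than in the TAC vehicle groups (0.11 and 0.13).

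The differences for Ccn1 were 0.64 ± 0.19 (1.55-fold higher, adjusted p = 0.0327) at day 3, -0.69 ± 0.19 (1.62-fold lower, adjusted p = 0.0161) at day 11 and -0.27 ± 0.19 (95% interval -0.67 to 0.13, adjusted p = 0.323) at day 28. The JQ1 effect differed between days (moderated F test, adjusted p = 0.0388), with a day 11 minus day 3 difference of -1.33 ± 0.27 whose own adjusted p was 0.0598 (0.0853% of all genes were called there). The day 3 call depended on single arrays. Without replicate 1 of the JQ1 group, the array that stood apart, the value was 0.43 (adjusted p = 0.228), and with array weights it was 0.30 (adjusted p = 0.319). It was also lost without replicate 1 (0.58, adjusted p = 0.11), 2 (0.68, adjusted p = 0.0608) or 3 (0.65, adjusted p = 0.07) of TAC vehicle and without replicate 3 of the JQ1 group (0.58, adjusted p = 0.0875). At day 11 the call was lost without replicate 3 of TAC vehicle (-0.62, adjusted p = 0.0614) or replicate 1 (-0.66, adjusted p = 0.0579) or 3 (-0.46, adjusted p = 0.115) of the JQ1 group. The test between days was lost with 11 of 18 arrays left out in turn, with adjusted p-values of 0.00956 to 0.0834 over the 18 and 0.0626 without the array that stood apart. Those 11 were replicates 1 and 3 of both groups at day 3, all TAC vehicle arrays and JQ1 replicates 1 and 3 at day 11, and replicate 1 of both groups at day 28.

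Ccn4 levels with JQ1 were 6.26, 6.44 and 6.58 at day 3, 6.42, 6.29 and 6.32 at day 11, and 6.51, 6.50 and 6.26 at day 28. They were below the vehicle-treated TAC arrays at days 3 and 11 and overlapped them at day 28. The differences were -0.45 ± 0.11 (1.37-fold lower, adjusted p = 0.00674), -0.31 ± 0.11 (1.24-fold lower, adjusted p = 0.0476) and -0.24 ± 0.11 (95% interval -0.46 to -0.02, adjusted p = 0.112). The effect did not pass a test between days (adjusted p = 0.589). The day 3 call was lost without replicate 2 of TAC vehicle (-0.34, adjusted p = 0.0625) or replicate 1 of the JQ1 group (-0.37, adjusted p = 0.0537). The day 11 call sat at the threshold and was lost with any 1 of its 6 arrays left out (adjusted p = 0.0662 to 0.146), and the day 28 difference was called without replicate 2 of TAC vehicle (-0.37, adjusted p = 0.0184).

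Ccn3 with JQ1 read 6.65, 6.71 and 6.68 at day 3, 6.82, 6.94 and 6.82 at day 11, and 6.96, 6.81 and 7.12 at day 28. The day 3 arrays were the lowest of the series for this gene and lay below the vehicle-treated TAC arrays, and the groups overlapped on the other days. The differences from TAC vehicle were -0.17 (adjusted p = 0.233), 0.06 (adjusted p = 0.684) and 0.04 (adjusted p = 0.779), with 95% intervals of -0.34 to 0.00, -0.12 to 0.23 and -0.14 to 0.21.

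**Figure D3:**
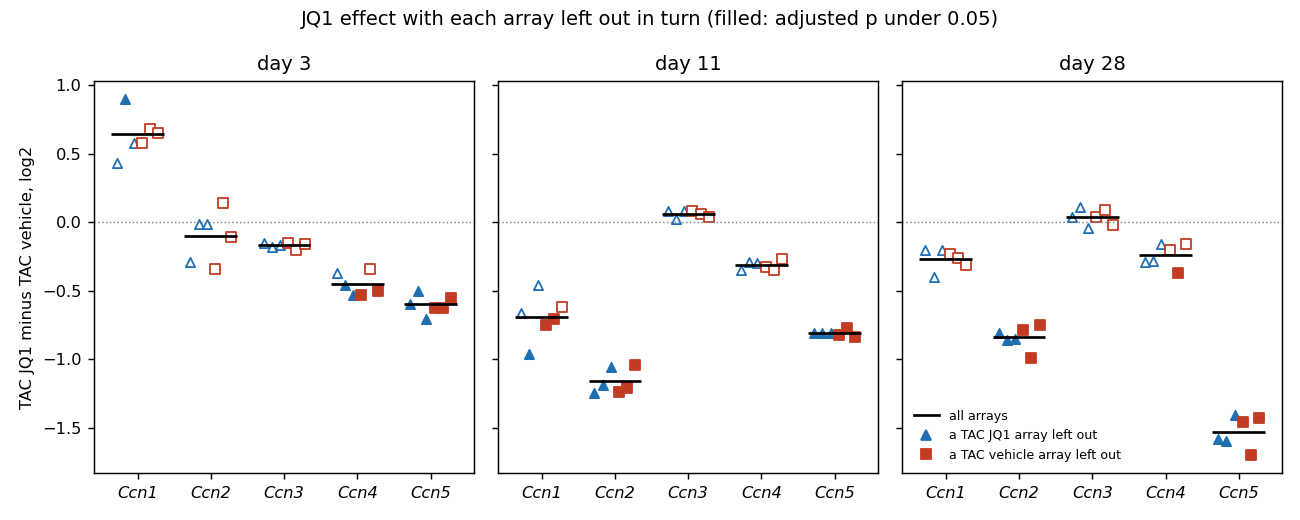
JQ1 minus TAC vehicle in log2 signal (vertical axis) for each CCN gene on days 3, 11 and 28, with all arrays (line) and with 1 array left out at a time (triangles, a JQ1 array; squares, a TAC vehicle array). Filled symbols have an adjusted p under 0.05. Ccn5 stays filled throughout, Ccn2 is filled at days 11 and 28, and Ccn1 at day 3 spans 0.43 to 0.90 with 1 filled symbol.

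Averaged over the 3 days, JQ1 was below vehicle by 0.98 log2 units for Ccn5 (-0.98 ± 0.07, adjusted p = 4.58e-10), by 0.70 for Ccn2 (-0.70 ± 0.11, adjusted p = 2.04e-05) and by 0.34 for Ccn4 (-0.34 ± 0.06, adjusted p = 0.000162). The averages for Ccn1 (-0.11 ± 0.11, adjusted p = 0.539) and Ccn3 (-0.02 ± 0.05, adjusted p = 0.771) did not pass. For Ccn1 this mean joins a positive and a negative effect. Of all genes 29.1% were called by this average, 16.8% lower.

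TAC hearts given JQ1 were also set against sham hearts, which shows how far each gene was from its level in sham hearts. Ccn2 was the member furthest from sham. It was above sham by 1.43 ± 0.19 at day 3 (2.70-fold, adjusted p = 1.18e-05) and by 0.77 ± 0.19 at day 28 (1.71-fold, adjusted p = 0.00425), and at day 11 by 0.36 ± 0.19 (95% interval -0.02 to 0.75, adjusted p = 0.252). On all 3 days its JQ1 arrays were above the sham arrays without overlap. The 2 groups did not overlap for 3, 2 and 1 of the 5 CCN genes on the successive days, against 26.6%, 32.6% and 33.3% of all genes. Ccn1 was above sham at day 3 by 0.97 ± 0.19 (1.96-fold, adjusted p = 0.000932), and by 0.77 (adjusted p = 0.0113) without the replicate that stood apart. Ccn2 at day 3 was above sham by 1.24 (adjusted p = 0.000153) without it. Ccn1 was not called against sham at day 11 (0.08, interval -0.32 to 0.48) or day 28 (0.06, interval -0.34 to 0.46).

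Ccn5 and Ccn4 in JQ1-treated TAC hearts did not pass the test against sham at any day. For Ccn5 the differences from sham were -0.15, -0.01 and -0.14, and the 95% intervals lay within -0.40 to 0.24. For Ccn4 they were 0.09, 0.11 and 0.11, with intervals that ended at 0.34 or below. These intervals show how large a difference could have been missed and do not show equality. Ccn3 was below sham at day 3 by 0.24 (-0.24 ± 0.08, adjusted p = 0.0493), a call lost without any of 5 of the 6 arrays (all but replicate 2 of sham, with values of -0.33 to -0.17 over the 6) and not made at days 11 and 28 (adjusted p = 0.379 and 0.791). Over all genes 17.6% were called against sham at day 3, 10.5% at day 11 and 19.9% at day 28, and of the 5 CCN genes 3, 0 and 1. Without the replicate that stood apart, 13% of all genes and 2 of the 5 were called at day 3. At day 11 limma called 0 of the 5 also at an unadjusted p under 0.05. At day 28 centring each array on its median split the calls into 1047 higher and 2900 lower, against 1468 and 2508. Averaged over the 3 days, JQ1-treated TAC hearts were above sham by 0.86 ± 0.11 for Ccn2 (adjusted p = 1.44e-06) and 0.37 ± 0.11 for Ccn1 (adjusted p = 0.0129), 2 of the 5 CCN genes against 29.9% of all genes.

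Ordered by mean level, the 9 groups fell into different sequences for each gene. Ccn5 began with TAC vehicle at day 28, day 11 and day 3, each apart from the next, and its other 6 groups, sham and JQ1 alike, overlapped their neighbours between means of 8.28 and 8.61. Ccn2 began with the TAC vehicle groups and JQ1 at day 3, which overlapped in turn between 11.51 and 11.83. They were followed, each without overlap of its neighbours in the order, by JQ1 at day 28 (10.93 ± 0.05, SD, n = 3) and day 11 (10.67 ± 0.20). The 3 sham groups came last, between 10.07 and 10.30. The lowest JQ1 array of day 11 and the highest sham array, of day 28, both read 10.45.

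Ccn1 had JQ1 at day 3 (10.66 ± 0.48, SD, n = 3) and TAC vehicle at day 11 (10.58 ± 0.13) at the top, overlapping each other and apart from the next group at 10.07, below which all neighbours overlapped down to sham at day 3 (9.69 ± 0.16). Ccn4 had the 3 TAC vehicle groups on top between 6.66 and 6.88 and the 6 others between 6.23 and 6.43. In Ccn3 the only break between neighbours was below TAC vehicle at day 11, above JQ1 at day 3. Residual SD within groups was 0.26 for Ccn1 and 0.252 for Ccn2, wider than for 97.2% and 96.8% of genes, and 0.10 for Ccn3, 0.136 for Ccn4 and 0.16 for Ccn5.

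Ccn6, a member known for its part in cartilage, was not called after TAC or with JQ1. Its 9 group means lay between 6.00 and 6.27, all neighbours in their order overlapped, and it was called in 0 of the 9 comparisons within days by limma, at an unadjusted p under 0.05 also in 0. The TAC minus sham differences were -0.12, -0.05 and -0.09, and the JQ1 minus TAC vehicle differences -0.03, -0.14 and -0.02. By mean signal Ccn6 was above 24.7% of genes, and whether this dim signal hid a difference was not tested.

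Members of the family did not share 1 pattern over the arrays. Pearson's r over the 27 arrays was 0.75 between Ccn2 and Ccn4, 0.69 between Ccn1 and Ccn2, 0.62 between Ccn4 and Ccn5, 0.59 between Ccn2 and Ccn5, and 0.21 between Ccn1 and Ccn5. The arrays share groups and days, so these values describe the data set and carry no p. After each group's mean was taken out, r was 0.39, 0.42, 0.56, 0.12 and 0.30 for the same pairs.

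Among all other genes the one most like Ccn2 over the 27 arrays was Dbn1, the actin-binding protein drebrin (r = 0.96), before Loxl1, a cross-linking enzyme of elastic fibres (0.95), and Col8a1, a chain of collagen VIII (0.94). Loxl1 was higher after TAC by 0.86, 1.12 and 1.36 on the successive days and differed with JQ1 by -0.09 at day 3 (adjusted p = 0.689), -0.67 at day 11 and -0.71 at day 28. The least like was P2ry1, an ADP receptor (r = -0.96), lower after TAC by 0.55, 0.78 and 0.60 (differences of -0.55, -0.78 and -0.60). Nearest to Ccn5 were Itih2, a hyaluronan-binding inhibitor chain (0.93), Mxra8, a matrix remodelling-associated receptor (0.92), and P2rx7, an ATP-gated channel (0.91). Mxra8 differed after TAC by 0.17 (adjusted p = 0.434), 0.64 and 1.09, and with JQ1 by -0.34, -0.59 and -0.78. Mrps28, a mitochondrial ribosomal protein, was the least like (-0.88), though after removal of the group means its r was -0.04.

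Ccn1 was most like Mafk, a small Maf transcription factor (0.83), Xirp1, an actin-binding protein of the intercalated disc (0.83), and Hbegf, a heparin-binding growth factor of the EGF family (0.80). After removal of the group means r with Ccn1 was 0.66 for Mafk, 0.80 for Xirp1 and 0.53 for Hbegf. Xirp1, like Ccn1 with all arrays kept, was higher with JQ1 than with vehicle at day 3, by 0.84 (adjusted p = 0.00133). At day 11 the Xirp1 difference was -0.15 (adjusted p = 0.571). Hbegf was higher after TAC at day 11 by 1.14 and lower with JQ1 there (-1.18). Ccn4 was most like Btk, a kinase of B cells and myeloid cells (0.89), Sprr1a, a stress-induced protein (0.88), and Srpx2, a secreted sushi-repeat protein (0.88). For Ccn3 the highest r were lower, 0.74 for Trmt1l, 0.73 for Osgepl1 and 0.73 for Mzt1. The least like genes were Mir694 for Ccn1 (-0.80), Ube2b for Ccn4 (-0.89) and Serinc2 for Ccn3 (-0.83).

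**Figure D4:**
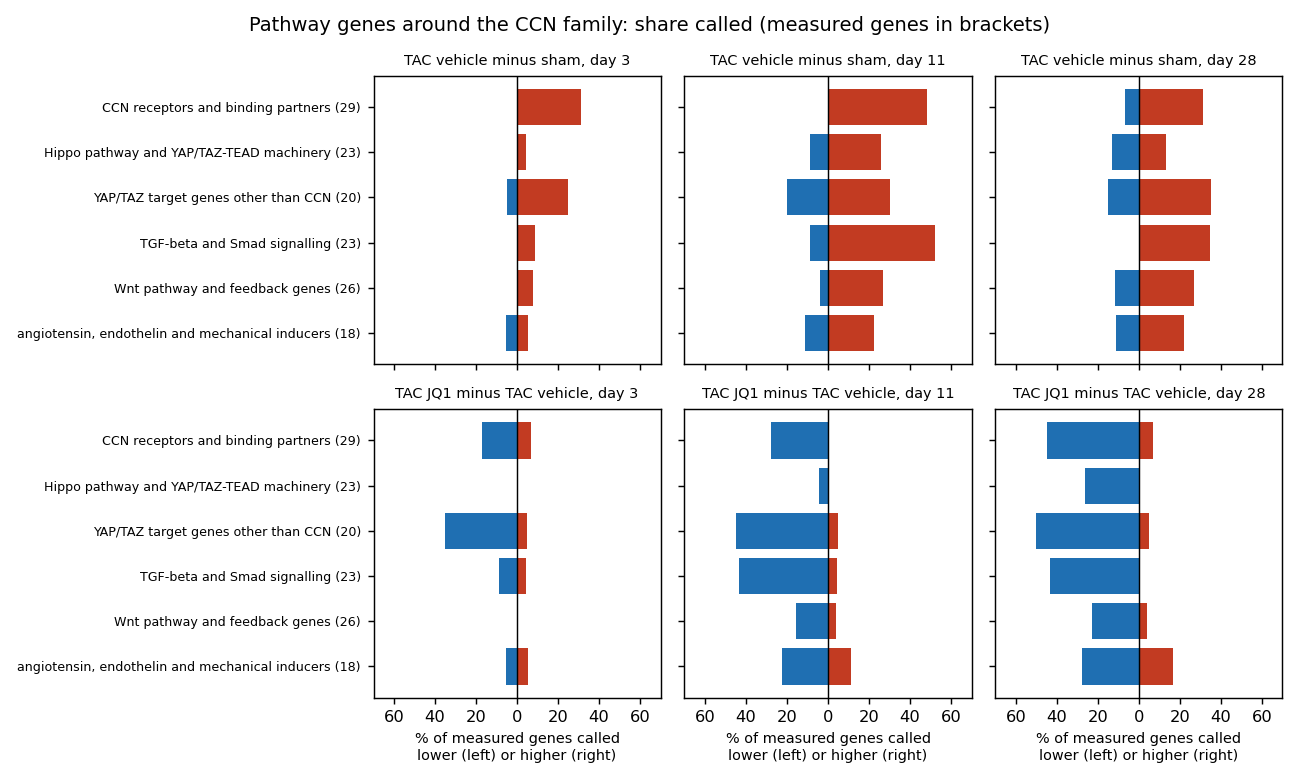
Share of the measured genes of 6 pathway lists around the CCN family (number measured in brackets) that were called lower (left of 0) or higher (right of 0) after TAC (top) and with JQ1 (bottom), by day, in percent. CCN receptors and binding partners reach 14 of 29 genes higher after TAC at day 11, and 13 of 29 lower with JQ1 at day 28. Of all genes 7.8% and 12.4% were called in these directions.

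Among receptors and binding partners of CCN proteins, Lrp1, Bgn and Fgfr1 rose after TAC. Of 29 measured genes 9 were called higher and 0 lower at day 3, 14 and 0 at day 11, and 9 and 2 at day 28. The shares of all genes called in either direction were 7.55%, 15.5% and 15.1%. Their median differences were 0.15, 0.26 and 0.03, against -0.03, 0.01 and -0.05 over all genes. Lrp1, the endocytic receptor that binds Ccn2, was higher by 0.32 ± 0.08 at day 3 (adjusted p = 0.0101), 0.60 at day 11 and 0.59 at day 28. Bgn, the proteoglycan biglycan, was higher by 0.71, 1.05 and 1.01, and Fgfr1, a fibroblast growth factor receptor, by 0.43 at day 11 and 0.63 at day 28. Notch1 (-0.26, adjusted p = 0.0228) and Hspg2, the heparan sulphate proteoglycan perlecan (-0.32, adjusted p = 0.0163), were the genes lower at day 28, although Hspg2 was higher at day 3 (0.30, adjusted p = 0.0483).

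With JQ1 the same list had 2 genes called higher and 5 lower at day 3, 0 and 8 at day 11, and 2 and 13 at day 28, with medians of -0.03, -0.22 and -0.22 (all genes 0.02, -0.05 and 0.06). At day 3 the counts were 1 and 4 without replicate 1 of the JQ1 group. Of all genes 11.9%, 16% and 19.6% were called with JQ1 in either direction. Itgb6, an integrin chain of epithelia, had the largest named differences, -2.07, -1.84 and -1.22, although it was not called after TAC (-0.38, -0.04 and -0.29). Lrp1 was lower at day 11 (-0.39, adjusted p = 0.00118) and day 28 (-0.79, adjusted p = 2.9e-07), and at day 3 differed by -0.01 (adjusted p = 0.972).

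Among YAP and TAZ target genes other than the CCN genes, 20 measured, TAC brought 5 higher and 1 lower at day 3, 6 and 4 at day 11, and 7 and 3 at day 28. JQ1 brought 1 higher and 7 lower, 1 and 9, and 1 and 10, and at day 3 1 and 5 without the replicate that stood apart. Among all genes 7.55%, 15.5% and 15.1% were called after TAC in either direction, and 11.9%, 16% and 19.6% with JQ1. Medians were 0.10, 0.03 and 0.05 after TAC and 0.01, -0.15 and -0.19 with JQ1. Some genes are in more than 1 list, so the counts of the lists are not fully separate. Amotl2, Lats2 and Ptpn14 are also in the Hippo list below, and Tgfb2 is also in the TGF-beta list. Tgfb1 is in the receptor and TGF-beta lists, and Dcn in the receptor and fibroblast marker lists. Ankrd1, a stretch-responsive nuclear protein of cardiomyocytes, was higher after TAC by 0.77, 0.84 and 0.56, and differed with JQ1 by -0.12 at day 3 (adjusted p = 0.355), -0.28 at day 11 (adjusted p = 0.0118) and -0.43 at day 28 (adjusted p = 0.000164). Myof, the membrane-repair protein myoferlin, was higher after TAC by 0.85, 0.92 and 0.91 and lower with JQ1 on all 3 days (-0.87, -1.03 and -1.22).

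Ccdc80, a secreted matrix protein, differed after TAC by 0.42 (adjusted p = 0.0556), 0.96 and 1.27, and with JQ1 by -0.71, -0.84 and -0.99. Axl, a receptor tyrosine kinase, was higher after TAC by 0.33, 0.56 and 0.66 and lower with JQ1 at day 11 (-0.32). Gadd45a, a growth-arrest gene, went the other way, lower after TAC at day 3 (-0.62) and day 11 (-0.40) and higher with JQ1 by 0.58, 0.87 and 0.26. F3, tissue factor, was lower after TAC at day 11 (-0.44) and lower with JQ1 at days 3 and 28 (-0.61 and -0.61).

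The Hippo pathway genes hold the kinases that restrain YAP and TAZ as well as YAP, TAZ and the TEAD factors. Of 23 measured 1 was higher and 0 lower after TAC at day 3, 6 and 2 at day 11, and 3 and 3 at day 28 (over all genes 7.55%, 15.5% and 15.1% were called in either direction), with medians of 0.07, 0.06 and -0.04. With JQ1 the counts were 0 and 0, 0 and 1, and 0 and 6 (over all genes 11.9%, 16% and 19.6%), with medians of 0.02, 0.00 and -0.07. At an unadjusted p under 0.05 limma gave 3 and 1 at day 3, or 1 and 1 without the replicate that stood apart. Wwtr1, which encodes TAZ, was higher after TAC by 0.36 at day 11 (adjusted p = 0.000698) and at day 28 (adjusted p = 0.000787) and lower with JQ1 at day 28 (-0.28). Tead1, a DNA-binding partner of YAP, was lower after TAC at day 28 (-0.40) and lower again with JQ1 (-0.43), and Vgll3, a TEAD cofactor, was higher after TAC by 0.49, 0.45 and 0.80.

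In TGF-beta and Smad signalling, a main inducer of Ccn2, 2 of 23 genes were higher and 0 lower after TAC at day 3, 12 and 2 at day 11, and 8 and 0 at day 28. The medians were 0.12, 0.36 and 0.20, and 7.55%, 15.5% and 15.1% of all genes were called in either direction. The ligand Tgfb2 was higher by 0.91, 1.39 and 0.87, and the ligand Tgfb3 by 0.98 at day 11 and 1.02 at day 28, after 0.49 (adjusted p = 0.0792) at day 3. The receptor Tgfbr2 was higher by 0.47 at day 11 and 0.39 at day 28, and the coreceptor Tgfbr3 was lower at day 11 (-0.46).

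With JQ1 the TGF-beta counts were 1 higher and 2 lower at day 3, also without the replicate that stood apart, then 1 and 10, and 0 and 10. The medians were -0.06, -0.08 and -0.21, and 11.9%, 16% and 19.6% of all genes were called in either direction. Tgfb2 was lower on all days (-0.58, -1.18 and -1.10), as was Tgfbr2 (-0.35, -0.59 and -0.59). Tgfb3 differed by -0.35 at day 3 (adjusted p = 0.212), -0.84 at day 11 and -1.40 at day 28. The corepressor Ski was higher with JQ1 at day 3 by 0.43 and at day 11 by 0.27.

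Of 26 Wnt pathway and feedback genes, the pathway Ccn4 and Ccn5 were named for, 2 were higher and 0 lower after TAC at day 3, 7 and 1 at day 11, and 7 and 3 at day 28. With JQ1 the counts were 0 and 0, 1 and 4, and 1 and 6. At an unadjusted p under 0.05 limma gave 2 and 3 at day 3, or 1 and 2 without the replicate that stood apart. Shares of all genes called in either direction were 7.55%, 15.5% and 15.1% after TAC and 11.9%, 16% and 19.6% with JQ1. Medians stayed near those of all genes, 0.02, 0.04 and -0.04 after TAC and 0.02, -0.12 and 0.09 with JQ1. Frzb, a secreted Wnt antagonist, was higher after TAC by 0.99, 1.50 and 2.06. With JQ1 it differed by -0.46 at day 3 (adjusted p = 0.11), -1.10 at day 11 and -1.70 at day 28. Sfrp1, another secreted antagonist, was higher after TAC by 1.21 at day 11 and 1.55 at day 28 and lower with JQ1 at day 28 (-1.01), whereas the ligand Wnt5a was lower after TAC at day 11 (-0.42) and day 28 (-0.33).

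Genes of angiotensin, endothelin and mechanical induction, 18 measured, were called 1 higher and 1 lower, 4 and 2, and 4 and 2 after TAC on the successive days, and 1 and 1, 2 and 4, and 3 and 5 with JQ1. At day 3 with JQ1 the counts were 1 and 2 without the replicate that stood apart. For comparison, 7.55%, 15.5% and 15.1% of all genes were called after TAC in either direction, and 11.9%, 16% and 19.6% with JQ1. Ace, which makes angiotensin II, was higher after TAC by 0.40, 0.98 and 0.84 and lower with JQ1 at day 11 (-0.57) and day 28 (-0.72). The angiotensin receptor Agtr1a was lower after TAC (-0.36, -0.64 and -0.40) and higher with JQ1 at day 11 by 0.41. Jun, an AP-1 subunit, was higher with JQ1 by 0.62 at day 11 and 0.61 at day 28, and Mrtfb, a coactivator of serum response factor, was lower on all 3 days (-0.34, -0.33 and -0.60).

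Markers of heart cell types also changed after TAC and with JQ1, in directions that differed between cell types. Against the counts below, 7.55%, 15.5% and 15.1% of all genes were called after TAC in either direction, and 11.9%, 16% and 19.6% with JQ1. The arrays hold RNA of whole tissue, in which fewer cells of a type and less RNA per cell cannot be told apart. The mean level of 8 activated fibroblast markers was 7.83 to 8.07 on the sham arrays, 8.56 to 9.49 on the TAC vehicle arrays, and 8.38 to 8.78, 8.23 to 8.32 and 8.14 to 8.22 on the JQ1 arrays of days 3, 11 and 28. After TAC 4, 5 and 6 of the 8 were called higher, and with JQ1 2, 6 and 6 lower. Without the replicate that stood apart limma called 0 of these lower at day 3, and 3 at an unadjusted p under 0.05. Postn, periostin, was higher after TAC by 2.30, 3.35 and 2.76. With JQ1 Postn differed by -0.43 at day 3 (adjusted p = 0.295), -1.20 at day 11 and -1.42 at day 28.

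The 8 general fibroblast markers had 2 called higher and 1 lower after TAC at day 3, then 5 and 8 higher, and with JQ1 1 higher and 3 lower at day 3 and 3 lower on each later day. Without the replicate that stood apart the day 3 count was 0 higher and 1 lower. Their mean level was 9.67 to 10.04 on sham arrays, 10.22 to 10.69 on TAC vehicle arrays and 9.86 to 10.34 on JQ1 arrays. The 8 macrophage markers had 3, 8 and 8 called higher after TAC and 7, 6 and 5 lower with JQ1, or 3 lower at day 3 without that replicate, with means of 8.33 to 8.92 on sham, 9.03 to 9.67 on TAC vehicle and 8.37 to 8.98 on JQ1 arrays.

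Endothelial markers had 0, 2 and 1 of 8 called higher after TAC and 2, 2 and 5 lower with JQ1 (1 at day 3 without that replicate), at means of 10.56 to 10.65, 10.43 to 10.85 and 10.27 to 10.70. The smooth muscle and pericyte markers had 3 higher and 1 lower, 3 and 1, and 0 and 3 after TAC, and with JQ1 0 and 0, 1 and 0, and 0 and 2. Epicardial and mesothelial markers had 1, 1 and 0 of 8 higher after TAC, and with JQ1 1 lower at day 3 (0 without that replicate, and 1 at an unadjusted p under 0.05 in limma), 1 lower at day 11 and 2 higher at day 28. Of 6 Schwann cell markers measured, 0, 2 and 2 were lower after TAC, and with JQ1 0, 2 and 1 were higher. The lowest value of any probe set on any array was 1.67, so no marker could read 0. Whether each cell type was detected was not tested. What part these cell types have in the CCN differences was not tested.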

How the data were processed

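The values are log2 signals of 34760 probe sets on 27 arrays, as deposited by the authors. How they were normalized is not stated in the sources used here, and the submitters' processing notes name limma without a version. Array medians lay between 6.954 and 7.043, and values were used unchanged. Of 21640 probe sets listing 1 gene, the one with the highest mean was kept per gene, which left 19937 genes.

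In R 4.3.3 with limma 3.58.1, 1 model with a mean per group (18 residual and 4.9 prior degrees of freedom) gave the contrasts and F tests, adjusted by Benjamini-Hochberg over all genes. The code was tested on simulated data. Replicate numbers were not used to pair samples in this model. Named list genes are up to 3 per direction with the smallest p among those called after TAC and up to 2 with JQ1. Members and lists were chosen with earlier results of these data known. The labels give no batch. Alternatives changed scaling, filter, probe summary, eBayes options, weights, block, samples fitted and arrays left out. Per array, the number of arrays limits precision. Figures used matplotlib 3.10.9.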

Additional observations from a re-analysis of the deposited data

Results flagged for a closer look

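Effects of the same contrast that differed between days are listed here. The TAC effect on Ccn5 differed between days (moderated F test of limma, adjusted p = 0.0178), and was higher at day 28 than at day 3 by 0.94 log2 units. The JQ1 effect on Ccn5 differed between days (adjusted p = 0.0258), with a difference of -0.93 between day 28 and day 3 and of -0.72 between day 28 and day 11. These Ccn5 results share the TAC vehicle arrays. Without replicate 3 of TAC vehicle at day 28 the moderated F test of the TAC effect on Ccn5 had an adjusted p of 0.0612. Without replicate 1 of that group the F test of the JQ1 effect on Ccn5 had an adjusted p of 0.0844. With the replicate number as a block within the day, these F tests gave 0.0529 for TAC and 0.0701 for JQ1. The JQ1 effect on Ccn1 differed between days (adjusted p = 0.0388), being positive at day 3 and negative at day 11. This Ccn1 result depended on single arrays: the F test was lost with 11 of 18 arrays left out in turn. The limma contrast of day 11 minus day 3 had an adjusted p of 0.0598. Without the array that stood apart, the day 3 effect was 0.43 and not called (limma, adjusted p = 0.228). In no group are there more than 3 arrays, so single arrays were not tested as outliers.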

How the results depend on the processing

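Of 45 within-day results of the 5 CCN genes, 28 kept their sign and call under every alternative run, as did 11 of 15 results between days. Both counts include results not called in the main model, and all 11 between days were of that kind. Each called result between days lost its call under some of its 25 alternatives. The call was lost under 2 for the TAC effect on Ccn5, 13 for the JQ1 effect on Ccn1 and 2 for the JQ1 effect on Ccn5. The main model did not pair samples by replicate number. Residual correlations of same-numbered arrays ran from -0.46 to 0.50. All 3 arrays correlated best with their own number only for sham and TAC vehicle at day 28. With 3 arrays per group, these correlations cannot exclude that replicate numbers pair samples. With the replicate number as a block within the day, adjusted p-values rose above 0.05 for Ccn1 with JQ1 at day 3 (0.64, adjusted p = 0.0511), Ccn4 with JQ1 at day 11 (-0.31, adjusted p = 0.0503), Ccn3 of JQ1 against sham at day 3 (-0.24, adjusted p = 0.0782), and between days for the TAC effect on Ccn5 (0.0529) and the JQ1 effects on Ccn1 (0.0825) and Ccn5 (0.0701). The cause of the changes below was not tested unless the setting itself uses fewer arrays.

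Quantile normalization again gave -0.28 (adjusted p = 0.0533) for Ccn4 with JQ1 at day 11, -0.32 (adjusted p = 0.0232, now called) at day 28, -0.24 (adjusted p = 0.081) for Ccn3 of JQ1 against sham at day 3, and turned the uncalled Ccn3 values at day 28 to -0.01 with JQ1 and to 0.00 against sham. Centring arrays gave -0.29 (adjusted p = 0.0617) for Ccn4 with JQ1 at day 11, -0.23 (adjusted p = 0.0962) for Ccn3 of JQ1 against sham at day 3 and 0.02 for the uncalled Ccn5 against sham at day 11. Trend and robust options gave -0.31 (adjusted p = 0.0518) and -0.24 (adjusted p = 0.0611) for the first 2 of these. Array weights gave 0.30 (adjusted p = 0.319) for Ccn1 with JQ1 at day 3, and adjusted p-values between days of 0.0588 for Ccn1 and 0.0269 for Ccn2 under JQ1. Averaging the probe sets of each gene changed no call or sign. Leaving out the dimmest genes (1 in 3) removed Ccn4, which gave no value there, and changed no other call or sign.

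With only the 2 groups compared fitted, calls were lost for Ccn4 after TAC at day 3 (0.55, adjusted p = 0.0507) and day 28 (0.35, adjusted p = 0.061), Ccn5 after TAC at day 3 (0.45, adjusted p = 0.0598), with JQ1 for Ccn1 at day 3 (0.64, adjusted p = 0.166) and day 11 (-0.69, adjusted p = 0.0622) and Ccn4 at day 3 (-0.45, adjusted p = 0.111), and for Ccn3 of JQ1 against sham at day 3 (-0.24, adjusted p = 0.246). Ccn1 after TAC at day 28 was called (0.33, adjusted p = 0.0138). With only the 9 arrays of the day, calls were lost for Ccn4 after TAC at day 3 (0.55, adjusted p = 0.0527) and day 28 (0.35, adjusted p = 0.075), Ccn5 after TAC at day 3 (0.45, adjusted p = 0.0921), with JQ1 at day 3 for Ccn1 (0.64, adjusted p = 0.1) and Ccn4 (-0.45, adjusted p = 0.0548), and for Ccn3 of JQ1 against sham at day 3 (-0.24, adjusted p = 0.154).

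With 1 array left out at a time, values that lost or gained a call in part ran from 0.38 to 0.51 for Ccn5 after TAC at day 3 and 0.26 to 0.48 for Ccn4 at day 28. With JQ1 they ran from 0.43 to 0.90 for Ccn1 at day 3 and -0.96 to -0.46 at day 11, and for Ccn4 from -0.53 to -0.34, -0.35 to -0.27 and -0.37 to -0.16 on the successive days. Ccn3 of JQ1 against sham at day 3 ran from -0.33 to -0.17. Adjusted p-values between days ran from 0.000821 to 0.0612 for the TAC effect on Ccn5, and for JQ1 from 0.00956 to 0.0834 for Ccn1, 0.0173 to 0.158 for Ccn2 and 0.00129 to 0.0844 for Ccn5. Uncalled values that turned sign ran from -0.05 to 0.08 for Ccn3 after TAC at day 28, -0.34 to 0.14 for Ccn2 with JQ1 at day 3 and -0.04 to 0.11 for Ccn3 at day 28. Against sham they ran from -0.19 to 0.31 (day 11) and -0.07 to 0.13 (day 28) for Ccn1, -0.07 to 0.06 for Ccn5 at day 11 and -0.03 to 0.12 for Ccn3 at day 28.

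Counts over all genes also moved. After TAC the 1506 genes called at day 3 became 2902 with array weights, 250 with the 2 groups, 224 with the day's arrays, 849 when sham replicate 3 was left out and 466 when TAC vehicle replicate 2 was. The 3097 at day 11 became 5974 with weights, and the 3013 at day 28 became 1794 without TAC vehicle replicate 3. With JQ1 the 2372 at day 3 became 422 with the 2 groups, 819 with the day's arrays, 1485 without TAC vehicle replicate 2 and 1409 without JQ1 replicate 1. The 3180 at day 11 became 6933 with weights, 2107 and 2110 without TAC vehicle replicates 1 and 2, and 2039 and 2062 without JQ1 replicates 1 and 2. The 3907 at day 28 became 2126 with the 2 groups. For JQ1 against sham the 3511 at day 3 became 6334 with weights, 1178 with the 2 groups and 1654 with the day's arrays. The 2097 at day 11 became 5461 with weights, 1331 and 1366 without sham replicates 1 and 2, and 1180 and 1329 without JQ1 replicates 1 and 2.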
